A study of Mus musculus with 16 samples.

Results

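The 40 genes described here act in meiosis or in the piRNA pathway of mouse germ cells, and were taken by name from a fixed list out of 21755 protein-coding genes on chromosomes 1 to 19 and X. For each gene, CpG methylation calls were pooled over the gene body and, separately, over the 1 kb on each side of its first annotated transcription start (the start window), on the GRCm38 build with GENCODE M21 annotation. The calls came from 16 post-bisulphite adapter tagging (PBAT) libraries, in which bisulphite conversion precedes adapter tagging so that few cells suffice. Each library was made from a pool of metaphase II (MII) oocytes of C57BL/6J X CBA/Ca F1 females, so all groups shared a genetic background. The oocytes kept their polar bodies, whose DNA is therefore part of each library. The extraction label speaks of blastocyst lysis although every library is labelled as oocytes.

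The 4 libraries of the in vitro follicle culture group (IFC) came from follicles isolated at 13 days of age and cultured for 10 days, with a labelled age of 23 days. The 5 libraries of the superovulated prepubertal group (SO) came from 23-day-old females given 2.5 IU of equine and then of human chorionic gonadotropin. The 4 libraries of the superovulated adult group (SOA) came from 10-week-old females given 5 IU of each, so age and hormone dose changed together between SO and SOA and cannot be told apart. The 3 libraries of naturally ovulated adults (IV) came from 10-week-old females without hormones. IFC follicles met their hormones in the culture medium and SO follicles by injection, and each pool mixes the oocytes of many follicles. The comparisons were IFC vs SO for follicle culture at matched age, SO vs SOA for sexual maturity, SOA vs IV for superovulation, and IFC vs SOA. In IFC vs SOA culture, age and hormone treatment changed together and cannot be told apart.

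Meiosis in females starts before birth, when homologous chromosomes break, pair along the synaptonemal complex and recombine, and the oocytes then arrest. Many genes for these steps have CpG-rich starts that are repressed outside the germ line. The piRNA pathway uses PIWI proteins loaded with small RNAs, together with Tudor-domain scaffolds and helicases, to silence transposons in the germ line. During oocyte growth DNA methylation is laid down mainly across transcribed gene bodies, while most CpG-rich starts stay unmethylated.

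The libraries held from 5218053 to 23065411 calls. The shallower libraries, with fewer than 10000000 calls, numbered 9 (all IFC, SO1, SO2 and SOA1 to SOA3) and the deeper ones 7 (SO3 to SO5, SOA4 and all IV), and from 65.5 to 91.5% of covered positions in a library had 1 call. Start windows of maternally imprinted genes, which oocytes methylate, stood at 91.8% or above in 15 libraries and at 85.0% in IV1 (95% Wilson interval 81.9 to 87.6%). The paternally methylated stretch upstream of H19 was between 0 and 4.55% in all 16 libraries, on few calls in some. In SOA3 it was 0 of 5 calls (95% Wilson interval 0 to 43.4%) and in IFC2 0 of 13 (0 to 22.8%). Intervals cover counting error only. The study treats the pools as biological replicates, and the labels number them without naming the females or days behind each.

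The starts of the 40 genes were mostly unmethylated in all groups. Of the 39 start windows with at least 20 calls in every group, 36 stood below 20% when all libraries were pooled, and the median was 4.13% against 3.66% over the 17749 windows of all genes tested. The start window of Rec114, with 76 calls in all, was not tested. Gene bodies were split: 10 stood below 20%, 22 between 20 and 80% and 8 above 80%, with a median of 62.2% against 50.2% over 20054 genes. A body includes the part of the start window past the start, and with that window left out the median of 39 members was 77.2% against 66.3% over all genes.

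**Figure D1:**
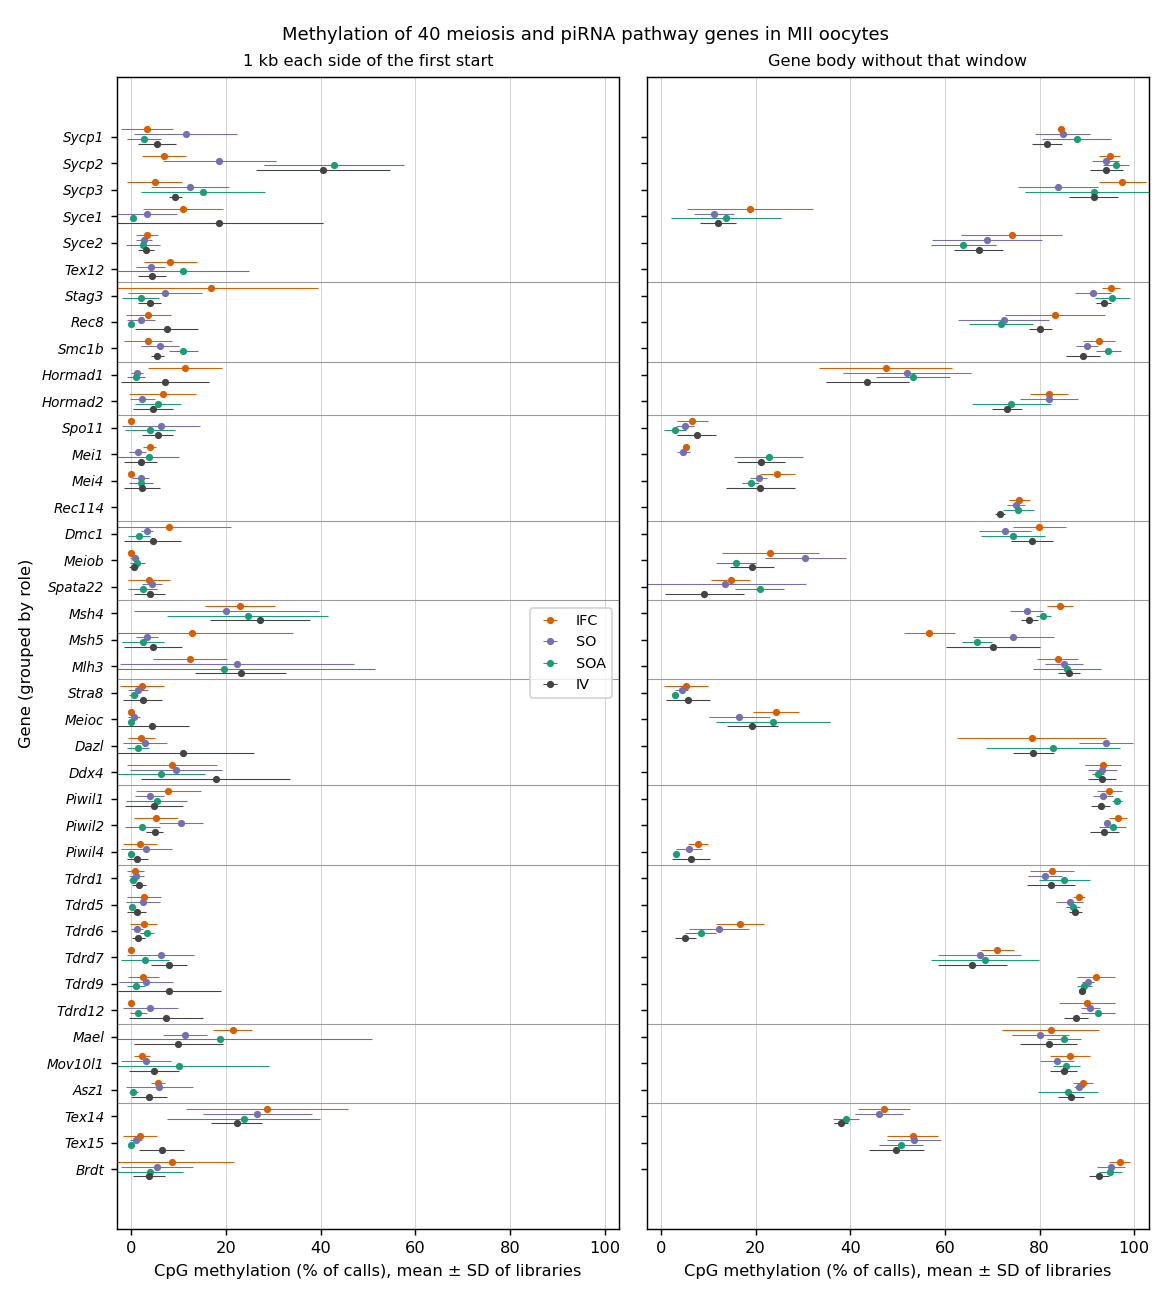
Methylation in percent of calls at the start window (left) and over the gene body without that window (right) for each of the 40 genes in IFC, SO, SOA and IV, with points for the mean and lines for the SD of libraries with at least 5 calls, and horizontal lines between roles. Most start windows sit below 20%, whereas bodies without the window range from 4.25% (Stra8) to 94.7% (Brdt); Rec114 has no window value and Tex12 no body value.

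Among the 6 synaptonemal complex genes, whose products zip paired chromosomes together, body levels ran from 10.2% in Syce1 to 79.4% in Sycp2. Without the start window the Sycp2 body was 94.2% methylated, the Sycp3 body 91.2% and the Sycp1 body 83.0%, whereas Syce1 stayed at 11.99%. The body of Tex12, a short gene, lay mostly inside its own start window, with 86.1% of its calls there, and was not tested without it. The 3 meiotic cohesins, which hold sister chromatids together, ranged from 53.0% (Rec8) to 78.0% (Smc1b). The axis proteins Hormad1 and Hormad2, which monitor pairing, stood at 35.9 and 72.9%.

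Genes of meiotic break formation had some of the least methylated bodies. Spo11, the enzyme that cuts the chromosomes, stood at 5.43%, Mei1 at 12.7% and Mei4 at 20.5%, while Rec114, a partner of Mei4, stood at 73.7%. Of the genes acting on single-stranded DNA, Spata22 stood at 11.3% and its binding partner Meiob at 19%, against 59.9% for the strand exchange recombinase Dmc1. The crossover genes Msh5, Msh4 and Mlh3 stood at 56.95, 66.4 and 80.5%. Stra8, the retinoic acid target that starts meiosis, had the lowest body of all at 4.09%, and Meioc, which keeps the meiotic programme running, stood at 18.8%.

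In the piRNA pathway 2 of the 3 PIWI genes were densely methylated, Piwil1 at 91.3% and Piwil2 at 88.2%, whereas Piwil4 stood at 5.57%. The 6 Tudor-domain genes, whose products dock onto methylated arginines of PIWI proteins, ran from 7.78% in Tdrd6 to 88.0% in Tdrd9. Mael, Mov10l1 and Asz1, which act in piRNA production, stood at 66.0, 80.2 and 80.4%. The germ cell RNA helicase Ddx4 stood at 79.8%, and the RNA-binding translational regulator Dazl reached 84.4% once its start window was left out. Tex14, a protein of the bridges between germ cells, stood at 42.2%, Tex15 at 46.6% and the testis bromodomain gene Brdt at 86.8%.

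The 3 start windows above 20% were those of Sycp2 at 29.4%, Tex14 at 21.02% and Msh4 at 20.4%. In Tex14 the IFC libraries read 16.7, 53.3, 17.3 and 27.3%, the SO libraries 35.7, 41.7, 14.7, 20.6 and 20.7%, the SOA libraries 4.55, 35.9, 38.1 and 16.4% and the IV libraries 16.5, 23.4 and 27.0%. All 4 groups overlapped there, and no comparison passed the test. The Tex14 window also overlaps Rad51c, another recombination gene. In Msh4, a MutS homologue of crossover formation, the IFC libraries with at least 5 calls read 29.0, 25 and 14.7%, the SO libraries 12.9, 10.5, 6.90, 15.3 and 54.5%, the SOA libraries 50, 18.5, 15.2 and 14.8% and the IV libraries 34.4, 32.1 and 15.1%. These groups overlapped as well, and the high SO value rested on 11 calls.

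For 6 genes the RefSeq start lay more than 500 bp from the first GENCODE start. The window around the RefSeq start, a comparison chosen after the data were seen, stood below 5% for Mei1 (2.80%), Rec114 (2.51%), Stra8 (1.82%) and Meioc (4.34%), and at 10.1% for Msh4, against 20.4% at its GENCODE start. Piwil1 differed: its RefSeq start, 33722 bp into the gene, read 97.8% against 4.67% at the GENCODE start.

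RefSeq held a promoter (250 bases before to 50 bases after the start) for 35 of the 40 genes. The letters TCCCGC, on either strand, were found in 17 of them (48.6%), against 20.1% of all 32619 RefSeq promoters. The letters CACGTG, which read the same on both strands, were found in 13 (37.1%) against 7.20% of all promoters. These are matches of letters only.

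Calls per gene were compared between groups by a logistic model with a likelihood-ratio test and Benjamini-Hochberg adjustment over all genes at 0.05. This test treats every call as independent, and the median dispersion of the gene bodies was 2.54 to 3.22 times what it assumes, so its counts are given beside those of limma on sample percentages and of a quasi-binomial F test, which both use the spread between libraries. In IFC vs SO, 10 of the 40 bodies were called against 19.3% of all genes, 9 of them higher in IFC (13% of all genes) and 1 lower (6.22%). In SO vs SOA, 11 were called (background 23.9%), 8 higher in SO (15.1%) and 3 lower (8.77%). In SOA vs IV, 11 were called (24.7%), 5 higher in SOA (11.4%) and 6 lower (13.3%), and in IFC vs SOA 16 (28.2%), 14 higher in IFC (20.5%) and 2 lower (7.75%).

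With a difference of 10 points or more, 2 bodies were called in IFC vs SO (background 6.51%), 2 in SO vs SOA (7.38%), 1 in SOA vs IV (6.02%) and 5 in IFC vs SOA (10.7%). Leaving out 1 library moved these to 2 to 5 (5 without IFC3 or IFC4), 1 (without SO2) to 3, 0 (without IV1) to 3 and 2 (without IFC2) to 7 (without SOA3), with 6.80 to 8.05, 7.22 to 10.04, 5.57 to 11.1 and 11.04 to 12.4% of all genes. limma called 0 of the 40 bodies in each comparison, with 4, 3, 1 and 7 members at an unadjusted p under 0.05 and a background of 0, 0.319, 0 and 0.967%. The quasi-binomial test called 0, 1, 0 and 1 (0.429, 1.65, 0 and 2.66%), and the called gene was Mei1 both times. The median difference of the members was 1.68 points in IFC vs SO against 0.547 over all genes, −0.29 against 0.008 in SO vs SOA, 2.04 against 0.669 in SOA vs IV and 1.78 against 0.553 in IFC vs SOA. Counted over the 4 comparisons, which share the IFC, SO and SOA libraries, 14 of the 40 bodies (35%) were called in none, against 46.3% of all genes.

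Start windows gave fewer calls. In IFC vs SO the call was Hormad1 alone (1 of 39, background 4.02%), and in SO vs SOA Sycp1 and Sycp2 (2, 4.61%). SOA vs IV gave 6 (3.97%), namely Syce1, Tex12, Rec8, Dazl, Ddx4 and Tex15, and IFC vs SOA gave 3 (4.73%), Sycp2, Hormad1 and Mael. limma and the quasi-binomial test called 0 windows in every comparison (background 0.0169, 0.0113, 0 and 0.0225% by limma and 0.0169, 0.0113, 0 and 0.00563% by the quasi-binomial test), with 2, 2, 3 and 5 members at an unadjusted limma p under 0.05 and 1, 3, 4 and 6 by the quasi-binomial test, in the order above.

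Mei1, a gene required for meiotic double-strand breaks and at chr15:82069996-82126814 on the plus strand, had the largest called difference of the 40 bodies. The IFC libraries read 4.70, 4.68, 5.63 and 5.87%, the SO libraries 3.32, 3.46, 6.09, 5.85 and 3.56%, the SOA libraries 30.2, 14.5, 25.6 and 17.3% and the IV libraries 24.9, 17.0 and 17.4%. Every library of 10-week-old females was above every library labelled 23 days, with no overlap. Means were 5.22% ± 0.62 in IFC (SD, n = 4), 4.46% ± 1.39 in SO (n = 5), 21.9% ± 7.25 in SOA (n = 4) and 19.8% ± 4.47 in IV (n = 3), over 255 to 1213 calls per library.

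The body was lower in SO than in SOA (difference −17.4 points), with an adjusted p of 9.45e-61 by the likelihood-ratio test, 0.000753 by the quasi-binomial test, 0.0674 by limma and p = 0.0159 by a two-sided exact permutation test, the smallest that 4 and 5 libraries allow. It was lower in IFC than in SOA (−16.7 points), with adjusted p-values of 1.39e-36 by the likelihood-ratio test, 0.00386 by the quasi-binomial test and 0.0931 by limma, and an exact permutation p of 0.0286, again the smallest possible. Within the shallower libraries the SO vs SOA difference was −20.0 points, and within the deeper libraries, SO3 to SO5 against SOA4 alone, −12.1. SOA vs IV and IFC vs SO did not pass the test for the Mei1 body.

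The difference was not spread evenly along the gene. The first 3 tiles of 100 CpGs after the start of Mei1 averaged at most 11.8% in each group, and the tile at the gene end between 1.26 and 5.62%. Between them lay the tile over exons 12 to 16, at 11.6, 9.76, 18.05 and 17.2% in IFC, SO, SOA and IV, and then a block of 4 tiles, over exons 17 to 28, in which SOA and IV stood above IFC and SO. Beyond the end of the gene the next tile was methylated at 89.3 to 91.8% in all 4 groups.

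**Figure D2:**
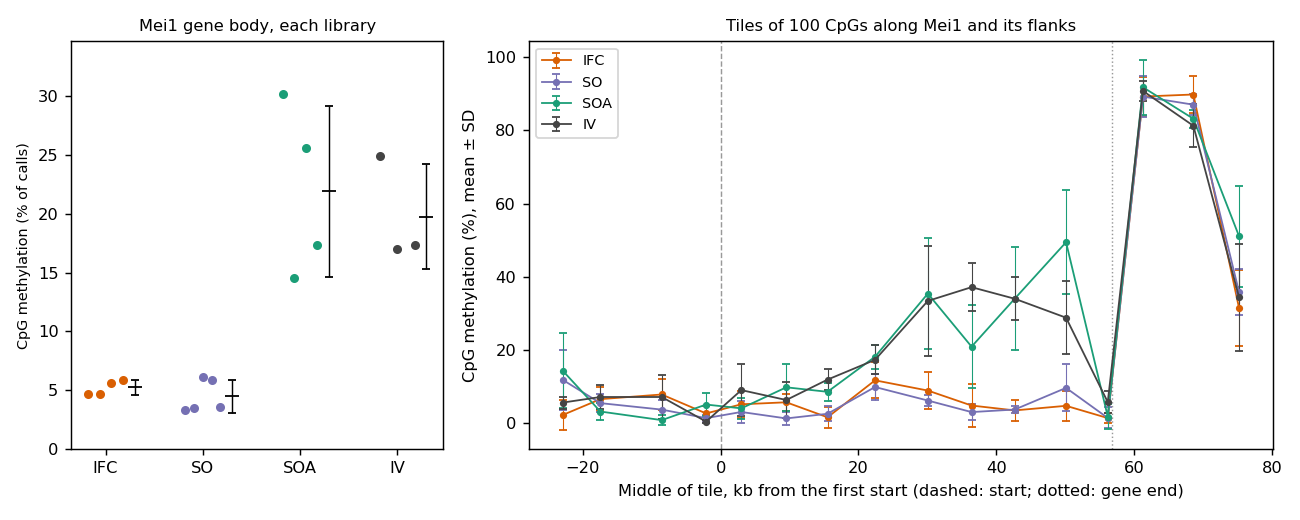
Left, methylation of the Mei1 body in percent of calls in each library (points) with the mean and SD of the group; right, group means and SD in percent of tiles of 100 CpGs, by distance of the tile's middle from the start in kb. The tiles at 30.1, 36.4, 42.7 and 50.1 kb are higher in SOA and IV than in IFC and SO, and all groups lie between 89.3 and 91.8% just past the gene end.

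The tile over exons 17 to 20 of 31, 30.1 kb after the start, read 2.44, 7.32, 11.8 and 13.6% in IFC, 6.67, 6.90, 6.62, 3.30 and 6.80% in SO, 44.8, 27.3, 50.9 and 18.3% in SOA and 45.5, 16.7 and 37.8% in IV. In the tile over exons 22 to 26 the IFC libraries read 2.33, 0, 4.71 and 6.38%, the SO libraries 2.17, 3.12, 3.62, 3.95 and 5.08%, the SOA libraries 46.3, 13.5, 38.2 and 37.7% and the IV libraries 31.6, 40.5 and 29.6%. The tile over exons 27 and 28, 50.1 kb after the start, read 3.45, 0, 5.00 and 10.0% in IFC, 8.57, 3.70, 20.2, 9.88 and 5.26% in SO, 55.6, 63.6, 48.0 and 30.4% in SOA and 40, 25 and 21.2% in IV. In all 3 tiles the SOA libraries lay above every SO and IFC library.

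The tile over exons 27 and 28 was lower in SO than in SOA (−39.9 points) and passed all 3 tests, with adjusted p-values of 1.59e-12 by the likelihood-ratio test, 0.00108 by the quasi-binomial test and 0.0391 by limma. It was lower in IFC than in SOA as well (−44.8 points), with a limma adjusted p of 0.0201. The other 2 tiles were lower in SO (−29.3 and −30.3 points), with limma adjusted p-values of 0.0922 and 0.0689 and quasi-binomial ones of 0.00107 and 2.79e-06. SOA also stood above IV by 20.7 points in the tile over exons 27 and 28, with an adjusted p of 0.0496 by the likelihood-ratio test and 0.884 by limma, and those libraries overlapped. That call was lost without SOA1, SOA2, SOA3, IV2 or IV3 (15.9 to 21.1 points, 0.082 to 0.37 by the likelihood-ratio test). The fourth tile, over exon 21, averaged 4.69, 2.90, 20.8 and 37.1% in IFC, SO, SOA and IV and did not reach the limit of 20 points in SO vs SOA.

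Methylated calls in the tile over exons 27 and 28 lay in several places. There the SOA libraries had from 8 to 22 separate runs of methylated positions (neighbours at most 100 bases apart) and the IV libraries from 10 to 14. The best covered 300 bases of that tile, in intron sequence at chr15:82121231-82121530 on the plus strand (GRCm38.p6, RefSeq), are shown because they carry the difference between SO and SOA, with each CpG in capitals.
Mei1, inside the called tile: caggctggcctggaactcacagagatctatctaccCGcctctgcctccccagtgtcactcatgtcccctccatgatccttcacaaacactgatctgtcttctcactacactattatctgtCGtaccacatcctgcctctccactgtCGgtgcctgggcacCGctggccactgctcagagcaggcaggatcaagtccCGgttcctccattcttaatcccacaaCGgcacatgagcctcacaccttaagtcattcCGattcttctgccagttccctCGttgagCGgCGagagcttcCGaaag
Over these 11 CpGs the calls were methylated in 1 of 13 in IFC, 2 of 51 in SO, 16 of 38 in SOA and 3 of 34 in IV. The IV share here, 8.82%, was below that of the tile as a whole, and its methylated calls were 3 of 7 in IV1 and 0 of 27 in IV2 and IV3 together.

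Sycp2, a lateral element protein of the synaptonemal complex at chr2:178345293-178407685 on the minus strand, had the largest called difference among the start windows. The IFC libraries read 8, 9.68, 9.68 and 0%, the SO libraries 31.2, 26.1, 15.8, 20.0 and 0%, the SOA libraries 62.5, 36.2, 44.8 and 28.0% and the IV libraries 44.8, 24.6 and 51.9%. All SOA and IV libraries lay above all IFC libraries, and SO overlapped IFC through SO5 and SOA through SO1. Means were 6.84% ± 4.63 in IFC (SD, n = 4), 18.6% ± 11.96 in SO (n = 5), 42.9% ± 14.8 in SOA (n = 4) and 40.5% ± 14.2 in IV (n = 3), from 9 to 104 calls per library.

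The window was lower in IFC than in SOA, with a difference of −36.0 points (adjusted p = 5.68e-06 by the likelihood-ratio test, 0.177 by the quasi-binomial test and 0.393 by limma; exact permutation p = 0.0286). It was lower in SO than in SOA, with a difference of −24.2 points (0.00177, 0.438 and 0.889 by the same tests; exact permutation p = 0.0317). The SO vs SOA call was lost within the shallower libraries (−19.2 points, adjusted p = 0.38 by the likelihood-ratio test), and within the deeper ones, where SOA4 is the SOA library, the difference was −16.1 points, with no test. The tile that covers this start and runs upstream of it was lower in IFC than in SOA (−27.7 points), with an adjusted p of 0.0089 by the quasi-binomial test and 0.0687 by limma. It was also lower in SO than in SOA (−20.8 points), with adjusted p-values of 0.000215 by the likelihood-ratio test, 0.0997 by the quasi-binomial test and 0.224 by limma (exact permutation p = 0.0317). Without SO5, SOA1 or SOA3 that difference was −17.8, −17.1 or −18.7 points, under the limit of 20.

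The difference sat just inside the gene. In steps of 250 bases, the 4 steps upstream of the start held no methylated call in IFC and SOA, 1 in SO and 4 in IV. From 250 to 499 bases into the gene 2 of 11 calls were methylated in IFC (18.2%), 9 of 31 in SO (29.0%), 47 of 58 in SOA (81.0%) and 37 of 50 in IV (74.0%). From 500 to 749 bases the levels were 29.4, 68.0, 71.4 and 90.5% in the same order, and the body beyond the window was 94.2% methylated over all libraries. The step from 250 to 499 bases held 11 of 96 window calls in IFC and 31 of 217 in SO. In SOA it held 58 of 175 and in IV 50 of 227. The window percentages thus also depend on where calls fell, and the size of that part was not tested.

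**Figure D3:**
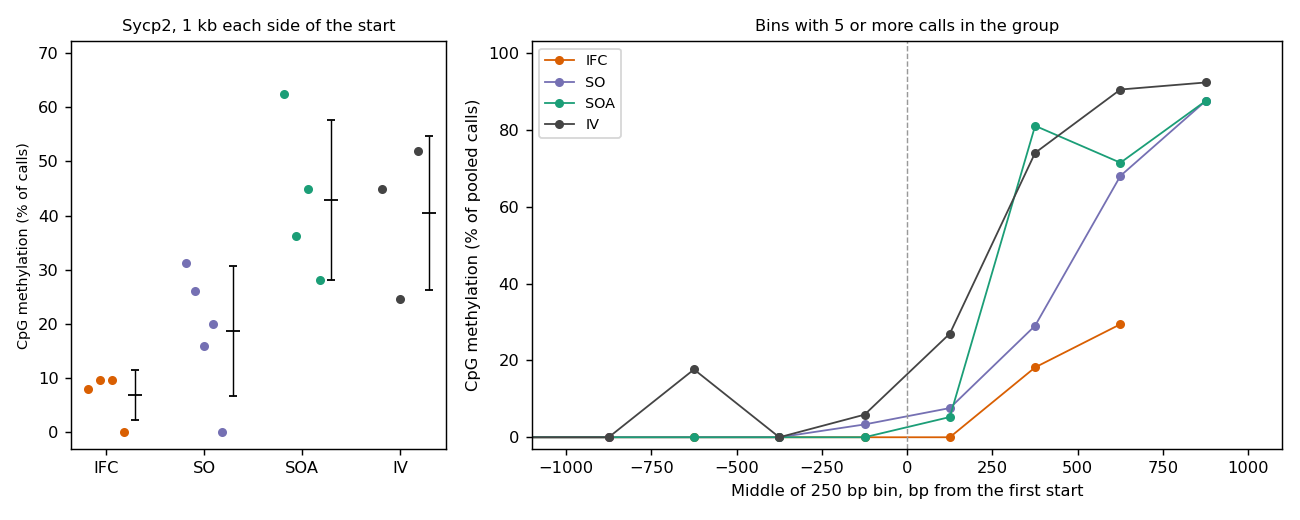
Left, methylation of the Sycp2 start window in percent of calls in each library (points) with the mean and SD of the group; right, percent of each group's pooled calls in steps of 250 bases with at least 5 calls, by distance from the start in bases. From 250 to 499 bases SOA (81.0%) and IV (74.0%) lie above SO (29.0%) and IFC (18.2%), while most steps upstream are at 0%.

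The best covered 300 bases of the first 1 kb of Sycp2, in intron sequence at chr2:178406955-178407254 (minus strand, GRCm38.p6, RefSeq), show where the methylated body begins, with each of 17 CpGs in capitals.
Sycp2, 431 to 730 bases after the start: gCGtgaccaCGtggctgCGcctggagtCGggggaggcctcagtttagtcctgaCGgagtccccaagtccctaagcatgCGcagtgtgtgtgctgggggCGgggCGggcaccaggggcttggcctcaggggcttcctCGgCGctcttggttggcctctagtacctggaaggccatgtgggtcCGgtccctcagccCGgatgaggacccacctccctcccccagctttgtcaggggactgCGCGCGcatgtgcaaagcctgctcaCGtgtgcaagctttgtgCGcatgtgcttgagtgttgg
Here 7 of 22 calls were methylated in IFC, 21 of 39 in SO, 24 of 30 in SOA and 24 of 29 in IV.

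Apart from Mei1 and Sycp2, called tiles with at least 20 points lay in 6 members: Msh5, Meiob, Tex12, Tdrd6, Hormad2 and Tex14. Over the members 1 of 232 tiles was called in IFC vs SO (background 1.21%), 6 of 227 in SO vs SOA (1.95%), 2 of 229 in SOA vs IV (0.437%) and 8 of 227 in IFC vs SOA (3.98%). limma called 0, 1, 0 and 2 of these (0.0497, 0.297, 0 and 1.16% of all tiles), with 6, 25, 10 and 27 tiles at an unadjusted p under 0.05.

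**Figure D4:**
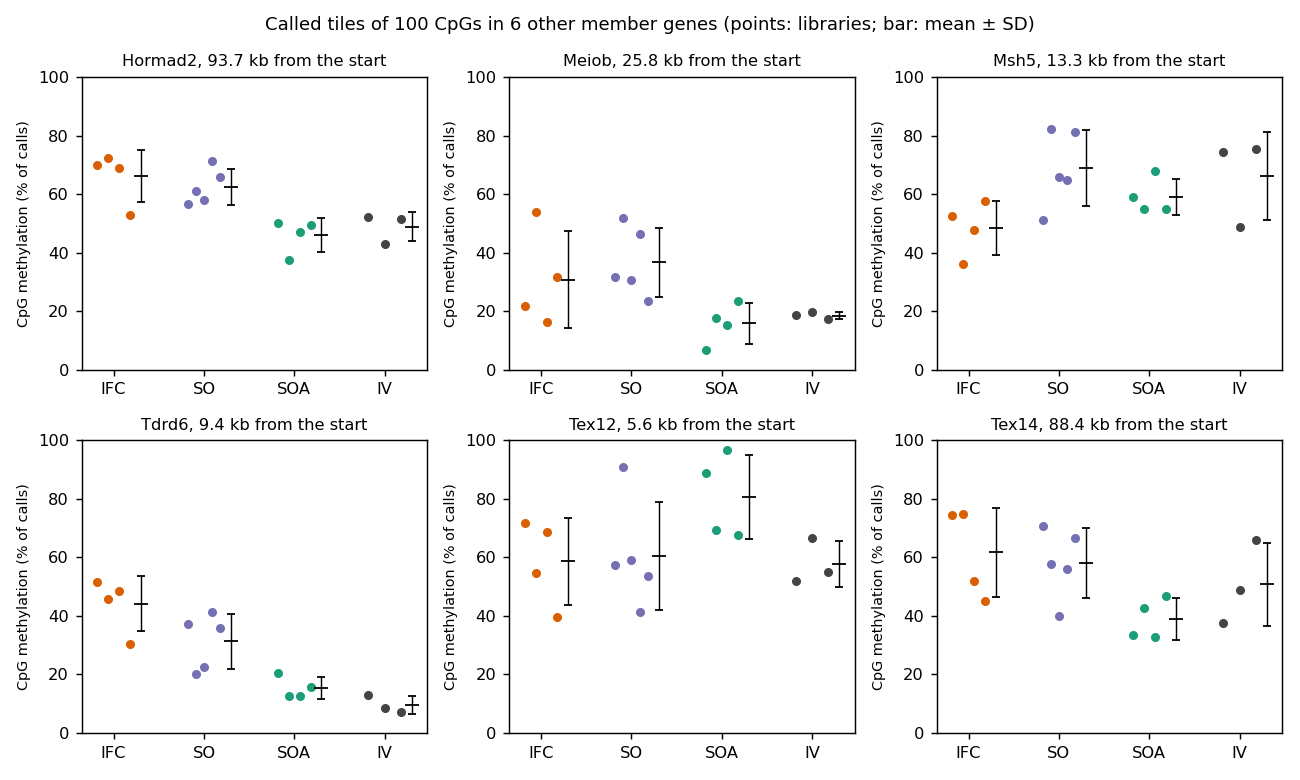
Methylation in percent of calls of the called tile in Hormad2, Meiob, Msh5, Tdrd6, Tex12 and Tex14 in every library (points), with the mean and SD of each group. In Tdrd6 the SOA libraries lie at 20.6% or below and the IFC libraries at 30.6% or above.

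Tdrd6, a Tudor-domain protein of the chromatoid body at chr17:43615335-43630299 on the minus strand, had a called tile in which IFC stood above SOA, unlike in Mei1. In the tile over its exons 2 to 5, 9.4 kb after the start, the IFC libraries read 51.5, 45.9, 48.6 and 30.6%, the SO libraries 37.2, 20.0, 22.4, 41.2 and 35.8%, the SOA libraries 20.6, 12.5, 12.5 and 15.7% and the IV libraries 12.9, 8.57 and 7.14%. All IFC libraries lay above all SOA and IV libraries, and SO overlapped both IFC and SOA. IFC was higher than SOA by 28.8 points, from 44.1% ± 9.34 to 15.3% ± 3.82 (SD, n = 4 each), and the difference passed all 3 tests (adjusted p = 3.31e-07 by the likelihood-ratio test, 0.00143 by the quasi-binomial test and 0.0294 by limma; exact permutation p = 0.0286). Over the whole Tdrd6 body the same comparison gave 14.3 against 6.77%, called by the likelihood-ratio test (1.69e-05) but not by limma (0.377), and the call was lost without SOA4 (6.85 points, 0.0504).

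Meiob, which binds single-stranded DNA with Spata22 during recombination, had a body that was lower in SOA than in SO. The SO libraries read 17.5, 38.9, 22.0, 30.1 and 21.7% and the SOA libraries 7.02, 17.8, 17.8 and 12.9%, so that the groups overlapped only at SO1. SO was higher by 12.2 points (adjusted p = 2.32e-05 by the likelihood-ratio test, 0.423 by limma; exact permutation p = 0.0476). In the tile over exons 6 to 13 of 14, SO read 31.6, 51.7, 30.5, 46.2 and 23.3% and SOA 6.67, 17.6, 15.2 and 23.6%. Those differed by 20.9 points (0.003 by the likelihood-ratio test, 0.231 by limma; exact permutation p = 0.0317), and IFC at 21.6, 53.8, 16.1 and 31.6% overlapped both. The tile was no longer called without SO4 (18.5 points, 0.076 by the likelihood-ratio test), and without SO2 or SOA1 its difference was under 20 points (17.15 and 17.9).

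Msh5, the partner of Msh4 in crossover formation, was the only body called lower in IFC than in SO. The IFC libraries read 50.5, 51.7, 41.9 and 48.9% and the SO libraries 52.7, 68.5, 63.8, 49.4 and 75.2%. The means of 48.3 and 61.9% differed by 13.7 points (adjusted p = 0.000134 by the likelihood-ratio test, 0.556 by limma; exact permutation p = 0.0635), with SO4 inside the IFC range, and the call was lost when libraries were thinned to the total of the shallowest (−8.45 points, 0.13). In the tile over exons 13 to 21 of 25 the means were 48.4% ± 9.23 and 69.1% ± 12.99 (SD, n = 4 and 5), with an adjusted p of 0.00146 by the likelihood-ratio test and an exact permutation p of 0.0476, and SO1 at 51.1% lay within the IFC range of 36.0 to 57.6%. Without IFC2, SO2 or SO5 that difference was under 20 points (−16.5, −17.3 and −17.6).

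Tex12, a central element protein of the synaptonemal complex, had a tile, shared with the gene Bco2 and with Il18, that stood higher in SOA than in the 3 other groups. The SOA libraries read 88.9, 69.2, 96.8 and 67.7%, the SO libraries 57.6, 90.9, 59.0, 41.4 and 53.5%, the IFC libraries 71.7, 54.5, 68.8 and 39.5% and the IV libraries 51.9, 66.7 and 54.9%. SOA overlapped SO and IFC but not IV, and limma gave adjusted p-values of 0.542, 0.353 and 0.884 against SO, IFC and IV. The likelihood-ratio test called all 3 (adjusted p = 0.000589, 0.0158 and 0.0132), but the call against SO was lost without SO4 (0.053), that against IFC without IFC2 (0.058), IFC4 (0.28) or SOA3 (0.13) and that against IV without SOA3 (0.101) or IV1 (0.18). SO minus SOA also fell short of 20 points without SO1, SO3, SO5, SOA1 or SOA3 (−19.4, −19.8, −18.4, −17.4 and −14.8). IFC minus SOA did so without SOA1 (−19.3). The adjoining tiles outside Tex12, over Bco2, averaged 66.7, 64.7, 87.9 and 81.3% and 23.9, 30.8, 55.6 and 41.4% in IFC, SO, SOA and IV. SOA was the highest group in both.

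Hormad2 and Tex14 each had a tile higher in IFC than in SOA. In Hormad2, over its last exon, IFC read 70, 72.3, 69.0 and 52.9% and SOA 50, 37.5, 46.9 and 49.5%, without overlap (20.1 points; adjusted p = 0.00756 by the likelihood-ratio test, 0.108 by limma; exact permutation p = 0.0286). In Tex14, over exons 6 to 9, IFC read 74.5, 75.0, 52.1 and 45.2% and SOA 33.3, 42.9, 32.7 and 46.9%, overlapping at IFC4 and SOA4 (22.8 points; 0.00314 and 0.227; exact permutation p = 0.0571). The likelihood-ratio call was lost without IFC2 in Hormad2 (18.0 points, 0.058) and without IFC1 in Tex14 (18.5 points, 0.11).

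Rec8, the meiotic kleisin subunit of cohesin, was higher in IFC than in SOA over its body. The IFC libraries read 55.7, 71.4, 56.8 and 57.5% and the SOA libraries 43.2, 52.0, 36.4 and 48.4%, without overlap. The difference was 15.4 points (adjusted p = 0.0176 by the likelihood-ratio test, 0.241 by limma; exact permutation p = 0.0286), and the call was lost without IFC2 (11.7 points, 0.085), without SOA3 (12.5 points, 0.052) and without the start window (11.4 points, 0.064).

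Pooled calls of a body can differ because a different share of them falls into the unmethylated start, and 3 of the bodies called with 10 points turned direction once the start window was left out. Stag3, a cohesin subunit, read 97.5, 88.3, 79.7 and 61.3% in IFC and 86.7, 61.5, 65.7 and 65.0% in SOA. With 17.2% of its IFC calls but 29.2% of its SOA calls inside the start window, its difference of 11.98 points became −0.25 without that window, and the call was also lost without IFC1 (6.72 points, adjusted p = 0.073 by the likelihood-ratio test). Mael, a piRNA biogenesis factor, read 83.3, 72.4, 84.1 and 66.0% in IFC and 83.0, 52.1, 63.3 and 64.2% in SOA, with 11.4 and 25.9% of calls in the window, and its difference of 10.8 points became −2.76. Dazl read 23.3, 25, 17.4 and 37.5% in IFC and 17.1, 12.96, 20.7 and 11.4% in SOA, and 10.3 points became −4.44. Without the window IFC and SOA averaged 95.1% ± 1.94 and 95.4% ± 3.65 in Stag3 (SD, n = 4 each). In Mael they averaged 82.4% ± 10.3 and 85.1% ± 3.53, and in Dazl 78.3% ± 15.8 and 82.8% ± 14.1. All 3 turned differences lay within these SDs, and Dazl had 231 calls there over all libraries. The Mael call was lost without IFC1 (8.56 points, 0.060) or IFC3 (8.30, 0.059), and its difference was 6.32 points without SOA2 and 16.6 without SOA1. The Dazl call was lost without IFC1 (0.081), IFC2 (0.062), IFC4 (6.38 points, 0.15), SOA2 (0.066) or SOA4 (0.25), with p-values of the likelihood-ratio test throughout. The Stag3 difference was 18.8 points without IFC4.

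Mael was called in IFC vs SO as well. The SO libraries read 48.8, 64.4, 56.2, 72.8 and 67.4%, overlapping IFC, with a difference of 14.5 points (adjusted p = 0.00177 by the likelihood-ratio test, 0.554 by limma; exact permutation p = 0.0794) that shrank to 2.19 points without the start window (0.55). The start window of Mael itself was called in IFC vs SOA, with pooled levels of 23.1% (39 calls) and 5.83% (206 calls). Its library means were 21.4 and 18.8%, where SOA1 read 66.7% on 6 calls, IFC2 held no call, and the groups overlapped. Its difference of 2.66 points was 18.6 without SOA1, turned to −2.44, −3.59 and −1.95 without SOA2, SOA3 and SOA4, and was not called without any of the latter or without IFC1 or IFC3 (0.056 to 0.19 by the likelihood-ratio test).

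Hormad1, a chromosome axis protein, was the only start window called in IFC vs SO. The IFC libraries read 20.6, 14.3, 2.38 and 8.33% and the SO libraries 3.12, 0, 1.19, 1.56 and 0%, so the groups overlapped at IFC3 and SO1. The difference of 10.2 points (adjusted p = 0.00641 by the likelihood-ratio test, 0.379 by the quasi-binomial test and 0.866 by limma; exact permutation p = 0.0317) was no longer called without IFC1 (7.16 points, 0.37), with the replicate number as a block (0.074) or within the shallower libraries (0.29). In IFC1 6 of its 7 methylated positions lay in 1 run of neighbours, and IFC2 had 7 calls in all. SOA read 4.00, 0, 0 and 0%, and the IFC vs SOA difference of 10.4 points was likewise lost without IFC1 (0.39) or SOA4 (0.29).

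Sycp1, the transverse filament of the synaptonemal complex, was the only body called with 10 points in SOA vs IV. The SOA libraries read 73.9, 86.5, 82.7 and 65.0% and the IV libraries 52.4, 69.2 and 65.2%, overlapping, with a difference of 14.7 points (adjusted p = 0.0059 by the likelihood-ratio test, 0.864 by limma; exact permutation p = 0.171). The call was lost without IV1 (9.82 points, 0.47) and without the start window (6.26 points, 0.48). In its start window SO was higher than SOA by 8.74 points (0.0134 by the likelihood-ratio test, 0.889 by limma), with SO4 at 27.2% and SO5 at 18.3% above the 3.57, 6.12 and 2.14% of the other SO libraries and SOA at 0, 0, 7.69 and 3.20%. That call was lost without SO4 (4.82 points, 0.34) and without SOA4 (8.90 points, 0.15).

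The other called bodies differed by less than 10 points. They included Piwil4, which IFC held at 7.67% and SOA at 3.19% without overlap (adjusted p = 3.7e-05 by the likelihood-ratio test, 0.0805 by the quasi-binomial test and 0.4 by limma), and Piwil1, which SOA held at 93.9% and IV at 90.1%, also without overlap (0.0226 by the likelihood-ratio test, 0.864 by limma), a call lost without SOA1 (0.12), SOA2 (0.077) or IV1 (0.15). Msh4 stood 9.88 points higher in IFC than in SO (1.79e-05 and 0.614), Meioc 8.33 points higher (0.00426 and 0.606) and Syce2 9.97 points higher in IFC than in SOA (0.00136 and 0.802). The Meioc call was lost without IFC4 (6.20 points, 0.105) or SO3 (7.08 points, 0.12). In Syce2 the difference was 18.4 points without IFC3, 6.33 without IFC1 (0.056), 6.17 without IFC4 (0.041) and 5.16 without SOA4 (0.94).

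None of the 6 windows called in SOA vs IV was called without the library IV1, although in Tex12 IV1 was the lowest IV library. Of the 39 member start windows 30 (76.9%) were higher in IV1 than in IV2 and IV3, against 44.1% of 17632 windows over all genes, a ranking made after the data were seen. Pooled over the members, the start windows read 12.3% in IV1, 5.93% in IV2 and 6.15% in IV3, whereas pooled over all genes they read 10.0, 8.51 and 8.20%. The median window of all genes was 5.15% in IV1, the highest of any library, against 3.39% in IV2 and 2.94% in IV3. Without IV1 the bodies called in SOA vs IV fell from 11 to 3, while over all genes the share called fell from 3.97 to 2.41% of windows and from 24.7 to 14.45% of bodies.

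**Figure D5:**
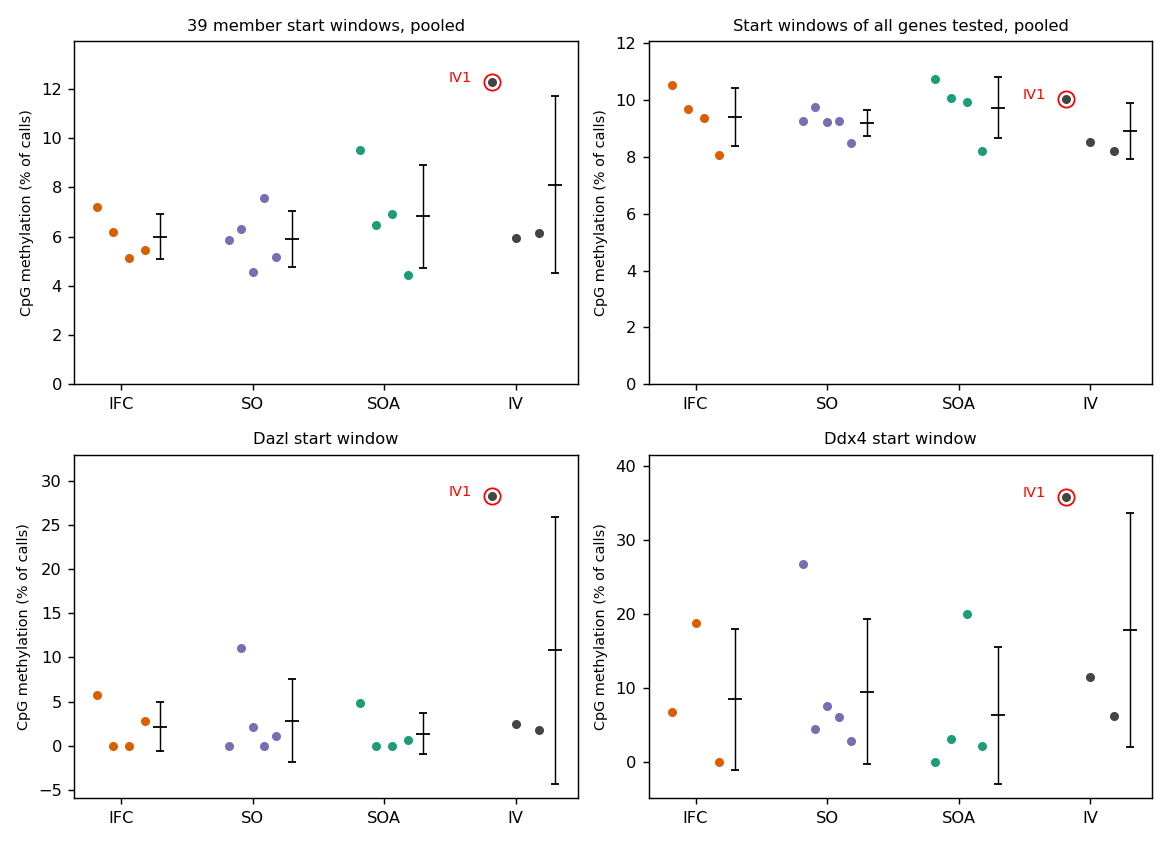
Methylation in percent of calls in each library (points, IV1 circled) with the mean and SD of each group, for the 39 member start windows pooled, the windows of all genes tested pooled, and the windows of Dazl and Ddx4. IV1 is the highest library in the pooled members (12.3%), Dazl (28.3%) and Ddx4 (35.7%), but not in the pooled windows of all genes (10.0%).

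In the start window of Dazl, whose product regulates translation in germ cells, IV1 read 28.3% from 99 calls, IV2 2.42% and IV3 1.82%. The SOA libraries read 4.88, 0, 0 and 0.633% there, the IFC libraries 5.80, 0, 0 and 2.86% and the SO libraries 0, 11.1, 2.11, 0 and 1.08%. IV1 thus stood above all 15 other libraries. Its 28 methylated positions fell into 4 runs, the longest of 11 and 7 positions, while no other library had a run longer than 2. The SOA vs IV difference of −9.46 points was −0.74 without IV1.

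Ddx4, the germ cell RNA helicase also known as Vasa, read 35.7, 11.5 and 6.25% in the IV libraries and 0, 3.12, 20.0 and 2.22% in SOA. In Syce1, a central element protein, the IV libraries read 42.9, 12.5 and 0% and the SOA libraries 0, 0, 0 and 1.30%. For both, IV1 was the highest of the libraries with at least 5 calls, and the adjusted p-values of the likelihood-ratio test (0.000699 and 7.6e-05) became 0.25 and 0.075 without IV1. The Ddx4 difference of −11.5 points was −2.56 without IV1, and its call was also lost without SOA4 (0.20) and its difference was −17.3 without IV3, while the Syce1 difference of −18.1 points was −5.93 without IV1 and −27.4 without IV3. In Rec8 and Tex15 the SOA libraries were all at 0% (0 of 122 and 0 of 88 calls, which allow up to 2.46 and 3.41%) and the IV libraries read 15.1, 4.88 and 2.47% and 11.5, 5.95 and 2%, with quasi-binomial adjusted p-values of 0.639. Their differences of −7.48 and −6.48 points were −3.67 and −3.98 without IV1 (0.203 and 0.18 by the likelihood-ratio test), and the calls were also lost without SOA4 (0.17 and 0.39) and, in Tex15, without SOA1, SOA2 or SOA3 (0.054 to 0.061). Tex12 went the other way, with SOA at 28.6, 0, 0 and 15.5% and IV at 2.52, 2.91 and 7.69%. Its difference of 6.63 points was 5.70 without IV1 (0.197), 0.78 without SOA1 (0.105), 5.15 without SOA4 (0.74), 5.90 without IV2 (0.0997) and 10.30 without SOA2 or SOA3 (0.011 and 0.016).

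In the 36 member windows below 20%, IV1 had 7 runs of at least 5 neighbouring methylated positions, in Dazl, Ddx4, Dmc1 and Mlh3, and the other libraries had from 0 to 2. Per 1000 calls this was 3.52 in IV1 and up to 2.45 in the others (IFC1), against 0.847 in IV1 and 0.369 to 0.824 in the others over the low windows of all genes. IV1 also had the lowest level at the maternally imprinted starts, 85.0%. The study suspected slight contamination of IV1 with somatic cell DNA and kept the library. Neither that nor the part of IV1 in the SOA vs IV results beyond the values without it was tested here.

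For Dazl the 300 bases of the window with the most methylated IV1 calls, and for Syce1 the 250 bases before the RefSeq start, are shown because IV1 stood apart there, both on the minus strand and upstream of the start (GRCm38.p6, RefSeq; CpGs in capitals). The Dazl stretch is chr17:50293836-50294135 with 15 CpGs and the Syce1 stretch chr7:140787855-140788104 with 13.
Dazl, upstream: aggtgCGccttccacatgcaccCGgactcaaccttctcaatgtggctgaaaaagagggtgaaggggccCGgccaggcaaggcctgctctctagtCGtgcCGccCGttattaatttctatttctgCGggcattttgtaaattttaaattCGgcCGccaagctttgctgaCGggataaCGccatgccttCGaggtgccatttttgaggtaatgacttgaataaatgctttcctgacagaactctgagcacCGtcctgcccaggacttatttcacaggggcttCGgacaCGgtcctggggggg
Syce1, upstream: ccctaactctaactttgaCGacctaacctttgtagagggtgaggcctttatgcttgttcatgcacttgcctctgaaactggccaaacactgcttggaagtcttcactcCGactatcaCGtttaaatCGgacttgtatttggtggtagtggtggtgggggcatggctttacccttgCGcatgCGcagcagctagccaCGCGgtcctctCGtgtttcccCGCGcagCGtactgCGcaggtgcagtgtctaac
In Dazl 10 of 21 IV1 calls were methylated against 2 of 44 in IV2 and IV3 together. In Syce1 the counts were 10 of 16 against 6 of 45.

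Pooled over the members, the 4 groups lay close together. Gene bodies averaged 58.2% ± 3.77 in IFC (SD, n = 4), 56.4% ± 2.14 in SO (n = 5), 56.8% ± 2.97 in SOA (n = 4) and 54.9% ± 1.08 in IV (n = 3), against 53.6, 52.6, 52.8 and 51.2% over all genes. The start windows averaged 6.00% ± 0.93, 5.90% ± 1.15, 6.83% ± 2.08 and 8.12% ± 3.61 in the same order, against 9.41, 9.20, 9.73 and 8.91% over all genes. These pooled levels are given without a test, since the genes were chosen with results known.

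The 64 other meiosis and piRNA genes of the wider list had a median body level of 70.3% and a median start window level (62 genes) of 5.01%. Of their bodies 9 were called in IFC vs SO, 16 in SO vs SOA, 8 in SOA vs IV and 14 in IFC vs SOA, against 19.3, 23.9, 24.7 and 28.2% of all genes, and of their windows 2, 2, 3 and 3, against 4.02, 4.61, 3.97 and 4.73%. The quasi-binomial test called 1 of these, a body in IFC vs SOA.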

How the data were processed

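CpG methylation was read from 16 PBAT libraries of pooled MII oocytes, grouped by their labels. The authors aligned reads to GRCm38 and removed duplicates, and the submitters' processing notes name Trim Galore 0.4.4, cutadapt 1.9.1 and Bismark 0.19.0. The deposited files give, for each covered cytosine of a CpG, how many calls were methylated and how many not, as raw counts, and the percent methylated. The percent is derived from the counts and was not used in tests. 0 columns of other samples were present. Females were C57BL/6J X CBA/Ca F1 and reads were mapped to the C57BL/6J genome, so a C-to-T variant of CBA/Ca reads as unmethylated in every group alike.

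Calls of both strands were summed over GENCODE M21 gene bodies, start windows and tiles of 100 reference CpGs with at least 5 covered positions in every library of the groups compared. Genes needed at least 20 calls in every group, and a library at least 5 calls for its own percentage. Difference means the gap between group means of library percentages, and the direction in counts of called genes is that of the pooled calls. Limits were an adjusted p of 0.05, 10 points for genes and 20 for tiles. The likelihood-ratio test, the quasi-binomial test and the exact permutation tests (all two-sided) were run in Python 3.11.15, using SciPy 1.17.1 and NumPy 2.4.6, and limma 3.58.1 was run in R 4.3.3 on library percentages. The dispersions of the quasi-binomial test were moderated with limma in R. The likelihood-ratio test, the quasi-binomial test and limma were run on simulated data, and the exact permutation test on a fixed case of separated groups. Figures were drawn with matplotlib 3.10.9. Genes of chromosome Y and the mitochondrion were left out.

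The members and lists were chosen with earlier results of these data known. Library values are given for members called with at least 10 points in any comparison, members with a called tile, and start windows at 20% or more, and the others by level, range and counts. The called bodies under 10 points and the Sycp1, Syce1, Ddx4, Rec8, Tex12, Tex15 and Piwil values were added after they were seen, as were the counts of runs, the windows at RefSeq starts, the ranking of IV1 and the choice of printed stretches. Over 25 pairs of libraries of the same group the mean chi-square per gene was 3.08 to 7.57, above the sampling noise of independent calls, and every library was counted separately. Alternatives changed the depth, the minimum of calls, the test, the window, the tiles or the libraries.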

Additional observations from a re-analysis of the deposited data

Results flagged for a closer look

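In 79 groups of 4 or 5 libraries, a library was looked for that lay far from the rest of its group. The limit was Dixon's ratio at the 95% level, which chance exceeds in about 1 in 20 groups. The groups came from the pooled members, the called tiles, and some bodies and start windows. The bodies were Mei1, Meiob, Msh5, Mael, Sycp1, Stag3, Rec8 and Dazl, and the windows Sycp2, Hormad1, Syce1, Ddx4, Tex14 and Msh4. Other windows given with library values, such as those of Dazl, Mael and Sycp1, were not searched. The ratio was exceeded 11 times, by libraries of IFC, SO and SOA. IV, with 3 libraries, was not searched.

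In gene bodies, Stag3 read 86.7% in SOA1 against 61.5 to 65.7% in the other SOA libraries, and Rec8 read 71.4% in IFC2 against 55.7 to 57.5%. The Rec8 call in IFC vs SOA was lost without IFC2.

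In start windows, Syce1 read 14.6% in SO4 against 0 to 1.89% and 1.30% in SOA4 against 0% in the rest. Hormad1 read 4% in SOA1 against 0%. In these 2 SOA groups the other libraries were at 0%, where any value above 0 exceeds the ratio, so the rate of 1 in 20 does not hold there. Msh4 read 54.5% in SO5 against 6.90 to 15.3% and 50% in SOA1 against 14.8 to 18.5%, and no comparison of that window passed the test. Ddx4 read 26.7% in SO1 against 2.86 to 7.55% and 20% in SOA3 against 0 to 3.12%.

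In tiles, the last-exon tile of Hormad2 read 52.9% in IFC4 against 69.0 to 72.3%, and the Mei1 tile over exons 17 to 20 read 3.30% in SO4 against 6.62 to 6.90%, all far below the SOA libraries. The cause of these values was not tested.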

How the results depend on the processing

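Counts of members called by the likelihood-ratio test moved by over 1.5 times in many settings. They are given in the order of the comparisons above (follicle culture, maturity, superovulation, then IFC vs SOA), and the cause was not tested.

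Of 10, 11, 11 and 16 bodies, limma called 0 in each and the quasi-binomial test 0, 1, 0 and 1 (4, 3, 1 and 7 at an unadjusted p under 0.05 by either). Libraries thinned to the total calls of the shallowest gave 4 in each of the first 3 comparisons, where 11.65, 14.3 and 13.05% of all genes were called. The shallower libraries alone gave 4 in IFC vs SO and 9 in IFC vs SOA (15.75 and 22.25% of all genes). Without the start window 6 were called in IFC vs SO, 6 in SOA vs IV and 8 in IFC vs SOA (10.8, 15.7 and 19.7% of all genes), of which 4, 5 and 6 were also called with it. Calls compared within tiles, a test chosen after seeing the data, gave 6 in IFC vs SO and 4 in SOA vs IV (12.01 and 17.8% of all genes). In IFC vs SOA without the start window Stag3 turned to −0.25, Dazl to −4.44 and Mael to −2.76 points.

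Of 1, 2, 6 and 3 start windows, limma and the quasi-binomial test called 0 in each. In IFC vs SO thinned libraries gave 0, 500 bases on each side 2 and the 1 kb upstream alone 0 (1.58, 2.96 and 1.41% of all windows). In SO vs SOA the shallower libraries gave 0 and the upstream 1 kb 0 (2.43 and 1.63%), where Sycp2 turned to 1.33 points. The deeper libraries are not counted there, since SOA4 is their only SOA library. In SOA vs IV a minimum of 10 calls in every library gave 3, thinning 1 and the upstream 1 kb 1 (4.55, 0.62 and 1.54%), and in IFC vs SOA these gave 0, 1 and 0 (6.18, 2.78 and 1.94%).

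Of 1, 6, 2 and 8 tiles with 20 points, limma called 0, 1, 0 and 2. Thinning gave 0 in IFC vs SO and 0 in SOA vs IV (1.17 and 0.276% of all tiles), where tiles shifted by 50 CpGs also gave 0 (0.443%). A limit of 10 points gave 16 in SO vs SOA, 6 in SOA vs IV and 23 in IFC vs SOA (6.32, 2.62 and 9.28%).

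Leaving out 1 library gave 6 to 13, 8 to 12, 3 to 13 and 9 to 20 bodies, while the share of all genes called ran from 16.9 to 22.2, 20.7 to 26.1, 14.45 to 28.8 and 22.25 to 29.7%, with the lowest counts without IFC2 in IFC vs SO, without IV1 in SOA vs IV and without SOA4 in IFC vs SOA. Windows ran from 0 (without IFC1) to 2 (without IFC3, SO1, SO2 or SO3), from 1 (without SO4) to 4 (without SOA4), from 0 (without IV1) to 7, with 2 without SOA4, and from 1 (without IFC1) to 5 (without SOA1). Over all genes the windows called ran from 3.23 to 4.24, 3.42 to 4.51, 2.41 to 6.02 and 3.72 to 4.54%. Tiles ran from 0 (without IFC2, SO2 or SO5) to 3 (without IFC4), from 4 to 8, from 1 (without IV1 or SOA3) to 4 (without SOA1 or SOA4) and from 6 to 11, with 1.23 to 1.45, 1.93 to 2.48, 0.421 to 0.843 and 3.99 to 4.38% of all tiles. The Mei1 body difference stayed between −19.9 and −14.7 points in SO vs SOA and between −19.1 and −13.9 in IFC vs SOA, and that of the Sycp2 window between −29.2 and −17.7 and between −41.0 and −29.5.

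Replicate numbers are shared between groups, and the labels do not say that a number marks a shared batch. Over 195691 tiles the correlation of the deviations from the group means had, for libraries of the same number, a median of 0.0098 (−0.045 to 0.069, 21 pairs), against −0.0023 (−0.095 to 0.146, 74 pairs) for other numbers. Of the libraries with a partner of the same number, 4 of 8, 5 of 8, 3 of 6 and 5 of 8 correlated best with it, where random partners would give 1.8, 1.8, 1.75 and 2. Those counts cover the 4 comparisons only and leave out the pairs of IV with SO and with IFC. Between SO and IV, SO1 and SO2 correlated best with IV3 (0.0363 and 0.0220) and SO3 with IV2 (0.0314). IV1 correlated best with SO4 (0.146), the highest value of all pairs. Between IFC and IV, only IFC3 correlated best with its partner, IV3 (0.0219). Whether a number marks a shared batch was not tested. With the replicate number as a block, 5 bodies were called in IFC vs SO (16.7% of all genes), 7 in SOA vs IV (26.02%), 4 of them also called without the block, and 2 windows in SOA vs IV (3.05%).

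All 74 alternatives for the group differences in the pooled levels of the members moved them by less than the spread between libraries. Those alternatives left out 1 library or averaged over members. Leaving out the start window was not among them and gave pooled body levels of 63.2, 61.8, 62.2 and 60.2% in IFC, SO, SOA and IV. Of 315 alternatives for single members, 236 kept direction and side of the threshold, 75 kept the direction without passing and 4 turned. In a library 65.5 to 91.5% of covered positions had 1 call, which limits precision.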
